A study of Mus musculus with 30 samples.

Results

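The genes described here are the glucocorticoid receptor and 7 of its well known target genes, followed in RNA-sequencing of C2C12 myotubes. They were chosen by name, as 8 rows of a table of 55487 genes: Nr3c1, which encodes the receptor, and Fkbp5, Tsc22d3, Zbtb16, Sgk1, Klf9, Glul and Errfi1. Of these, 7 passed the filter on low counts that left 15907 genes for testing, and Zbtb16 did not. C2C12 is a mouse myoblast line whose cells fuse into multinucleated myotubes when serum is lowered. All cultures were differentiated for 4 days in low glucose DMEM with 2% horse serum and then kept for 4 more days in 1 of 5 media. The 2% HS group stayed in 2% horse serum, the SD (serum-deprived) group had no serum, and the MET, LEU and MET+LEU groups had no serum but 100 nM metformin, 500 nM leucine or both. Each group had 6 libraries, and each library held between 12784960 and 19604103 counts. The labels do not say whether the replicates of a group were separate cultures, so p-values may measure only technical spread. As 1 cell line in culture, the myotubes stand for no whole muscle, and the counts hold transcripts only, with no measure of steroid or of receptor protein.

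Glucocorticoids are steroid hormones that enter the cell and bind a receptor held in the cytoplasm by the Hsp90 chaperone complex. The bound receptor moves to the nucleus, binds short inverted repeats in DNA and raises or lowers transcription of its targets. Serum carries steroid hormones, so cells kept without serum are also kept without that source. In skeletal muscle the receptor is best known for restraining growth and for raising genes of protein breakdown, glutamine synthesis and fuel choice. The comparison of SD with 2% HS therefore asked how transcripts of the receptor and its targets stood after serum had been withdrawn, and the comparisons with SD asked how they stood with metformin, leucine or both.

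The sequence that the receptor is known to bind was searched in the 250 bases before each annotated transcript start, taken from RefSeq (GRCm38.p6). Windows were matched for 6 of the 8 genes, 14 windows in all. The motif, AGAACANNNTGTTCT with N for any base, reads the same on both strands and was found in 3 of 32851 windows of all genes (0.00913%). The genes were Sgk1, Acnat2 and Gm35041, of which only Sgk1 was among the genes tested here. The Sgk1 window is shown because it holds the full motif, and the windows of Klf9 and Glul because these transcripts differed most between SD and 2% HS. Capitals mark the full motif or its arm, AGAACA or TGTTCT on the strand shown.
Sgk1, chr10:21993640-21993889, plus strand: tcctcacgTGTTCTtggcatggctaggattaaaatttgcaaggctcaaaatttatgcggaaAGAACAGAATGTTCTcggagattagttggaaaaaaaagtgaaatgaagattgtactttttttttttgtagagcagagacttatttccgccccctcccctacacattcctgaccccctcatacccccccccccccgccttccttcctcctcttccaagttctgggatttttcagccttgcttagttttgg
Klf9, chr19:23140976-23141225, plus strand: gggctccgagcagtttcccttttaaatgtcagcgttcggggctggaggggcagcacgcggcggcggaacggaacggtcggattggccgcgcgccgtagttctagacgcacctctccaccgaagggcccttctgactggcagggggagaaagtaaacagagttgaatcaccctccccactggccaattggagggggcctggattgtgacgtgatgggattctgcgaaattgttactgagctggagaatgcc
Glul, chr1:153899679-153899928, plus strand: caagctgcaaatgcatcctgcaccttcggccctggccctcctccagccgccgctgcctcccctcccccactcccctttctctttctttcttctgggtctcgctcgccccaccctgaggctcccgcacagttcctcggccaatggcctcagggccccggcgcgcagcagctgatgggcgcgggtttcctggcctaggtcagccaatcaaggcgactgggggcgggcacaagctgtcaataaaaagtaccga
In the Sgk1 window the match, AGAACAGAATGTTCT, lay 189 to 175 bases before the start. The single arm was found in 16.1% of all windows, and among these genes in 3 windows of Sgk1, the one shown included, and 1 of Tsc22d3. It was not found in the windows of Klf9, Glul, Fkbp5 or Errfi1. Sgk1 had the most windows of these genes, while Klf9, Glul and Fkbp5 had only 1 each, so the chances of a match were unequal. These are matches of letters in short windows, and receptor binding was not measured.

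Levels are given as CPM, the counts of a gene relative to the library's total, after scaling by TMM, an edgeR method that corrects for differences in library composition. Errors after ± are standard deviations over 6 libraries, written s.d. to keep them apart from the SD group. Per kilobase of annotated exon and averaged over all 30 libraries, Glul stood highest at 49.3 CPM per kb. Nr3c1 at 19.05, Sgk1 at 17.48 and Errfi1 at 17.03 CPM per kb came next, followed by Klf9 at 11.3, Tsc22d3 at 8.89 and Fkbp5 at 2.26 CPM per kb. The order of the middle genes depended on the medium. In 2% HS the mean level of Klf9 was 19.1 ± 1.36 CPM per kb (s.d., n = 6), that of Errfi1 17.9 ± 0.785 and that of Nr3c1 17.8 ± 1.13, and these neighbours lay within each other's spread. In SD Klf9 was at 9.05 ± 0.593 CPM per kb, below the 16.5 ± 0.491 of Errfi1 and close to the 8.52 ± 0.507 of Tsc22d3.

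Zbtb16 (ENSMUSG00000066687, chr9:48654297-48836222, minus strand, GRCm38) encodes a zinc finger repressor that is among the most strongly glucocorticoid-induced genes in many tissues. It had 0 counts in all 30 libraries, with serum or without. A count of 0 allows up to 3 counts, which is 0.153 to 0.235 CPM depending on the library, and this limit covers counting error only.

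**Figure D1:**
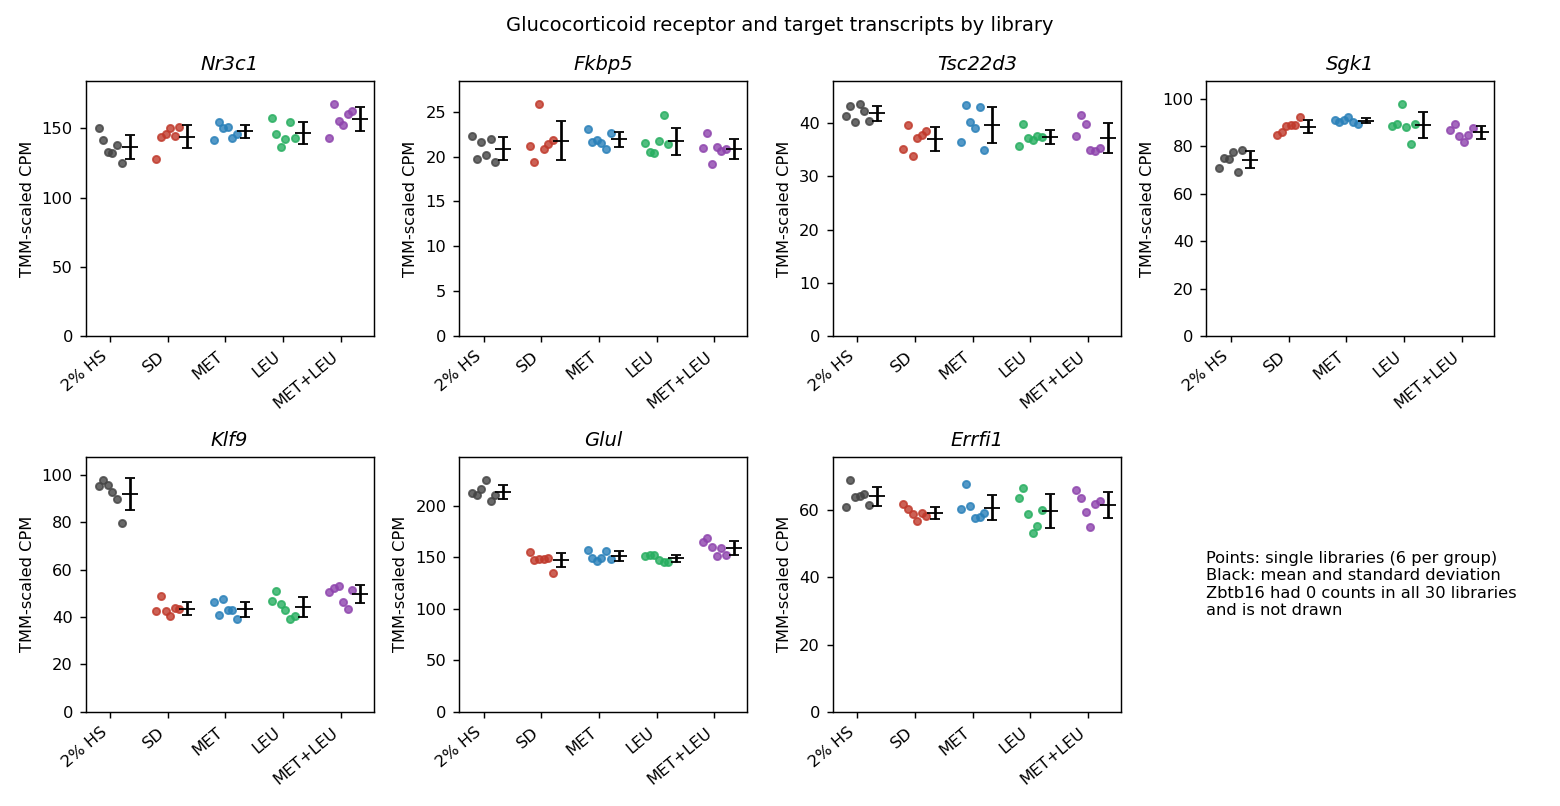
TMM-scaled CPM (vertical axes, from 0) of the receptor and its 6 detected targets in each of the 30 libraries, by group, with the mean and standard deviation in black. Klf9 and Glul are highest in 2% HS with no overlap with the other groups, Sgk1 is lowest there, and Fkbp5 is near 21 CPM in every group.

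Removal of serum lowered Klf9, Glul and Tsc22d3 and raised Sgk1, while Nr3c1, Fkbp5 and Errfi1 did not pass the test. Of the 7 genes tested, 4 were called in SD vs. 2% HS (adjusted p under 0.05 by the quasi-likelihood test of edgeR, Benjamini-Hochberg), against 27.8% of all genes tested. The 1 that rose stood against 13.9% of all genes called up and the 3 that fell against 13.9% called down. The same 4 genes had groups that did not overlap, 1 above (6.17% of all genes tested) and 3 below (7.42%), 13.6% in both directions together. The median log2 fold change of the 7 genes was -0.11, and that of all genes tested was 0.00. Targets that glucocorticoids raise thus lay on both sides of 0.

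Nr3c1 (ENSMUSG00000024431, chr18:39410545-39519421, minus strand) encodes the receptor itself. Its level ran from 125.0 to 150.4 CPM in 2% HS, with a median of 135.5. In SD it ran from 128.3 to 151.0 CPM, with a median of 145.0, and the groups overlapped over most of their range. The log2 fold change was 0.07 (95% interval -0.01 to 0.16, adjusted p = 0.205 by edgeR). The lowest SD value, replicate 1, stood apart from the other 5, which lay between 143.7 and 151.0 CPM.

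Klf9 (ENSMUSG00000033863, chr19:23141226-23168134, plus strand) encodes a Krüppel-like transcription factor induced by glucocorticoid and thyroid hormone. In 2% HS its level ran from 79.7 to 97.8 CPM, with a median of 94.1. In SD it ran from 40.4 to 48.9 CPM, with a median of 43.0. Every SD library lay far below every 2% HS library, and the SD mean was 47.4% of the 2% HS mean. The log2 fold change was -1.08 ± 0.06 (SE, adjusted p = 7.3e-20 by edgeR).

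Glul (ENSMUSG00000026473, chr1:153899944-153909723, plus strand) encodes glutamine synthetase, the enzyme that makes glutamine from glutamate and ammonia. Its level was 204.4 to 224.8 CPM in 2% HS, with a median of 211.2. In SD it was 134.7 to 155.2 CPM, with a median of 148.1. The groups were well separated, with the SD mean at 69.1% of the 2% HS mean and a log2 fold change of -0.53 ± 0.03 (SE, adjusted p = 1.2e-17 by edgeR).

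Tsc22d3 (ENSMUSG00000031431, chrX:140539528-140600659, minus strand) encodes GILZ, a leucine zipper protein that carries part of the anti-inflammatory action of glucocorticoids. Its level was 40.1 to 43.5 CPM in 2% HS, with a median of 41.9. In SD it was 33.7 to 39.7 CPM, with a median of 37.5. The groups did not overlap but lay close to each other, and the log2 fold change was -0.18 ± 0.05 (SE, adjusted p = 0.0083 by edgeR).

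Sgk1 (ENSMUSG00000019970, chr10:21882184-21999903, plus strand) encodes a kinase related to Akt that glucocorticoids, mineralocorticoids and serum are all known to induce. It was the only one of the 7 genes called up in SD vs. 2% HS. Its level was 69.2 to 78.4 CPM in 2% HS, with a median of 75.0. In SD it was 85.0 to 92.6 CPM, with a median of 88.8. All SD libraries lay above all 2% HS libraries, with a log2 fold change of 0.25 ± 0.04 (SE, adjusted p = 1.6e-06 by edgeR).

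Fkbp5 (ENSMUSG00000024222, chr17:28399094-28517527, minus strand) encodes an Hsp90 co-chaperone that lowers the receptor's affinity for hormone and is a widely used marker of glucocorticoid action. Its level was 19.4 to 22.3 CPM in 2% HS, with a median of 20.9. In SD it was 19.4 to 25.8 CPM, with a median of 21.3. The SD range covered nearly all of the 2% HS range, and the log2 fold change was 0.06 (95% interval -0.07 to 0.18, adjusted p = 0.518 by edgeR).

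Errfi1 (ENSMUSG00000028967, chr4:150853919-150868892, plus strand) encodes MIG6, a feedback inhibitor of the EGF receptor. Its level was 61.0 to 69.0 CPM in 2% HS, with a median of 64.1. In SD it was 56.7 to 61.9 CPM, with a median of 59.0, and the ranges met at their edges. The log2 fold change was -0.11 (95% interval -0.21 to -0.01), which did not pass after adjustment (adjusted p = 0.0786 by edgeR).

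The 3 groups with additives but no serum were compared with the same 2% HS libraries, so these comparisons share their control samples and are not separate evidence. In MET vs. 2% HS 4 of the 7 genes were called, 2 up and 2 down, against 35.0% of all genes tested (17.4% up, 17.5% down). In LEU vs. 2% HS 4 were called, 1 up and 3 down, against 29.7% (14.4% up, 15.3% down). In MET+LEU vs. 2% HS 5 were called, 2 up and 3 down, against 42.3% (22.1% up, 20.3% down). Klf9 fell in each, by 1.08 with MET, 1.05 with LEU and 0.89 with MET+LEU on the log2 scale. Glul fell by 0.50, 0.52 and 0.42 in the same order. Sgk1 rose, with log2 fold changes of 0.29, 0.26 and 0.21.

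Tsc22d3 fell in LEU (log2 fold change -0.16, adjusted p = 0.0168 by edgeR) and in MET+LEU (-0.16, adjusted p = 0.0103). In MET it was -0.08 (95% interval -0.19 to 0.02) and did not pass. Fkbp5 passed in none, with log2 fold changes of 0.07, 0.05 and 0.00, and Errfi1 in none, with -0.08, -0.10 and -0.06. Without LEU replicate 2, Errfi1 passed in LEU vs. 2% HS (adjusted p = 0.0324).

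Nr3c1 was called against 2% HS in MET+LEU, where its level of 142.8 to 167.4 CPM overlapped that of 2% HS, with a log2 fold change of 0.20 ± 0.04 (SE, adjusted p = 1.8e-04 by edgeR). In MET the log2 fold change was 0.11 (adjusted p = 0.0344 by edgeR). That call ended without 2% HS replicate 3 (adjusted p = 0.0687), 4 (0.0649) or 6 (0.119), and without MET replicate 2 (0.0810), 3 (0.0613) or 4 (0.0675). It also ended with upper-quartile scaling (0.0581). In LEU the log2 fold change was 0.10 (adjusted p = 0.0665), and it passed when any of 5 libraries was left out (2% HS replicate 1, SD replicate 1, LEU replicate 3, MET+LEU replicates 1 and 6, adjusted p 0.0189 to 0.0492). It passed too with limma-voom (0.0220) and, by edgeR, with only the groups compared (0.0197).

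**Figure D2:**
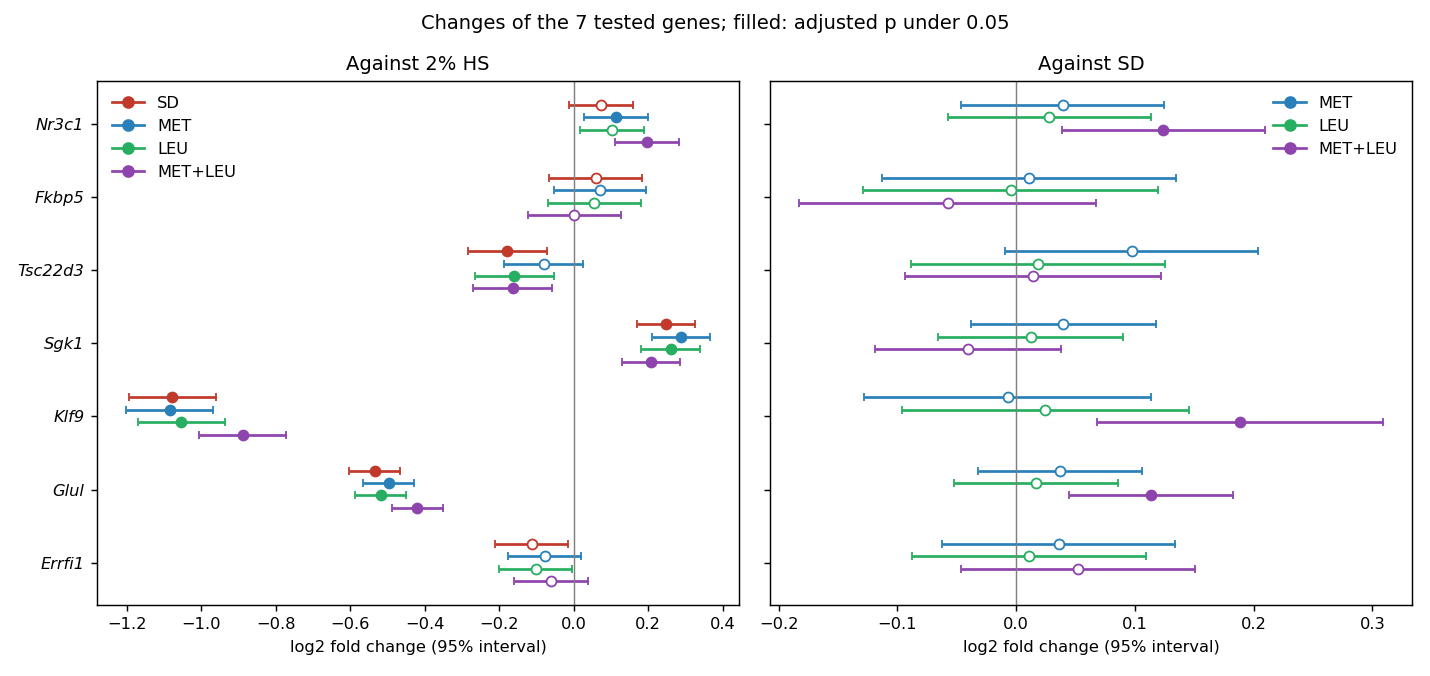
Log2 fold changes (horizontal axes, with 95% intervals) of the receptor and its 6 detected targets against 2% HS (left) and against SD (right), with filled points for an adjusted p under 0.05. Klf9 is near -1 in every serum-free group against 2% HS, and on the right only Nr3c1, Klf9 and Glul in MET+LEU are filled. The horizontal scales of the panels differ.

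None of the 7 genes passed the test with metformin or leucine alone relative to SD. In MET vs. SD 0 were called by edgeR, 0 by DESeq2 and 0 by limma-voom, with 0 at an unadjusted p under 0.05, against 0.157% of all genes called by edgeR. In LEU vs. SD the counts were again 0 by edgeR, DESeq2 and limma-voom and 0 unadjusted, against 0.553% of all genes. With MET the highest upper bound of an interval was 0.20 on the log2 scale, for Tsc22d3 (log2 fold change 0.10, 95% interval -0.01 to 0.20). With LEU the interval for Klf9 ran from -0.10 to 0.15 and that for Glul from -0.05 to 0.09.

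With the combination, 3 transcripts were higher than in SD by small amounts. None of these calls held when only the SD and MET+LEU libraries were fitted. Klf9, Glul and Nr3c1 were called up in MET+LEU vs. SD, and 0 were called down, against 18.4% of all genes called in either direction, 10.6% up and 7.80% down. None of the 7 genes had groups that did not overlap, against 5.34% of all genes tested. Sgk1, Tsc22d3, Fkbp5 and Errfi1 did not pass, with log2 fold changes of -0.04, 0.01, -0.06 and 0.05. Markers of cell state moved in the same contrast. Of 10 myotube markers 4 rose and 0 fell (Tnnt3 0.82, Tnni2 0.79, Myh1 0.46 and Myh3 0.36). The other 6 were not called, and the median log2 fold change of the 10 was 0.02. Of 6 myoblast and cycling cell markers 4 fell and 0 rose (Ccnb1 -0.89, Top2a -0.64, Cdk1 -0.61 and Mki67 -0.35). Without MET+LEU replicate 6 the values of the 4 myotube markers were 0.64, 0.59, 0.37 and 0.22. Mki67 was not called without SD replicate 6 or MET+LEU replicate 2, 3 or 5 (adjusted p 0.0505 to 0.0746). With only the groups compared, neither Myh3 (adjusted p = 0.0870) nor Mki67 (0.0853) was called. The summed level of the myotube markers was 33468 to 35990 CPM in SD (median 35676) and 32999 to 42248 CPM in MET+LEU (median 35596). That of the cycling cell list was 316.4 to 357.1 CPM (median 327.1) and 274.0 to 299.8 CPM (median 286.3). The part of these markers in the differences of Klf9, Glul and Nr3c1 was not tested.

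Klf9 was 43.5 to 53.3 CPM in MET+LEU, with a median of 51.1, and 4 of the 6 libraries lay above the highest SD library at 48.9. The log2 fold change was 0.19 ± 0.06 (SE, adjusted p = 0.0214 by edgeR), and the mean stood at 54.0% of the 2% HS mean. Glul was 151.2 to 168.3 CPM, with a median of 159.5, and the group overlapped SD at its lower end. The log2 fold change was 0.11 ± 0.03 (SE, adjusted p = 0.0152 by edgeR), and the mean stood at 74.7% of the 2% HS mean. Nr3c1 was 142.8 to 167.4 CPM, with a median of 157.9 (log2 fold change 0.12 ± 0.04, SE, adjusted p = 0.0344 by edgeR).

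These 3 calls were near the threshold, and none passed when only the SD and MET+LEU libraries were fitted. Klf9 was no longer called without SD replicate 4 (adjusted p = 0.0527) or MET+LEU replicate 3 (0.0510), and Glul without SD replicate 6 (0.0585) or MET+LEU replicate 1 (0.0518). Nr3c1 was no longer called without SD replicate 1 (adjusted p = 0.134) or 2 (0.0560), or without MET+LEU replicate 2 (0.0915), 5 (0.0840) or 6 (0.0716).

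The interaction of metformin and leucine asked whether the combination differed from the sum of the single effects. None of the 7 genes passed by edgeR, DESeq2 or limma-voom, and 1 had an unadjusted p under 0.05, against 0.0503% of all genes called. That gene was Klf9, with an interaction of 0.17 on the log2 scale (95% interval 0.00 to 0.34, adjusted p = 0.566 by edgeR).

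Nr3c1 had the order 2% HS, SD, LEU, MET and MET+LEU from low to high, over a range of 0.20 between group means on the log2 scale. Of these neighbours SD did not differ from 2% HS, nor LEU from SD, past the threshold, and the remaining neighbours were not compared. Likeness of pattern was the root mean square difference of centred group means of log2 CPM over the 5 conditions, among 12691 genes. Most like Nr3c1 were Elof1, Chd4 and Fbxo38, with differences of 0.0065, 0.0075 and 0.0092. Most like Fkbp5 were Armc9 (0.0059), Inpp5a (0.0073) and Sqstm1 (0.0083), and most like Tsc22d3 were Snx12 (0.0015), Tmem135 (0.0043) and Prmt3 (0.0092). For Nr3c1, Fkbp5 and Tsc22d3 the standard errors of the log2 fold change in SD vs. 2% HS were 0.04, 0.06 and 0.05. The differences above are smaller, so the order of likeness is not resolved. Fkbp5 passed in no comparison, over a range of 0.07 between group means.

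A wider list of 32 further genes that glucocorticoids are known to raise, of which 27 were tested, also moved both ways in SD vs. 2% HS. There were 7 up, 9 down and 11 not called, against 13.9% of all genes called up and 13.9% called down, and the median log2 fold change was 0.03, beside 0.00 for all genes. Klf15, a Krüppel-like factor and direct receptor target in muscle, fell by 2.03 on the log2 scale (adjusted p = 5.3e-07 by edgeR), from 2.48 CPM to 0.604 CPM on average (29 to 46 counts in 2% HS and 1 to 19 in SD). Fam107a, an actin-binding protein gene, fell by 1.79, and Gpx3, a secreted glutathione peroxidase, fell by 1.28. Angptl4, a lipoprotein lipase inhibitor that also answers to fatty acids and low oxygen, rose with a log2 fold change of 1.83. Per1, a clock gene that glucocorticoids induce directly, did not pass (0.04, adjusted p = 0.691 by edgeR).

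**Figure D3:**
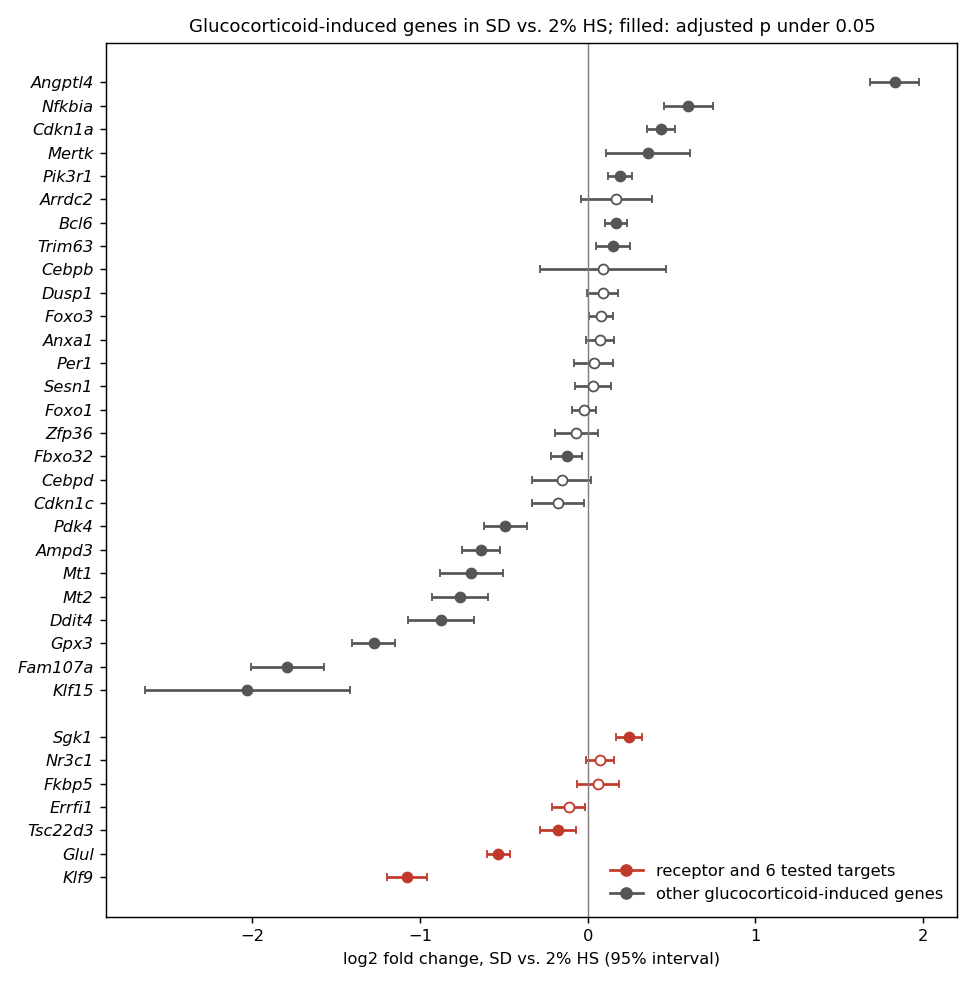
Log2 fold changes in SD vs. 2% HS (horizontal axis, with 95% intervals) of the receptor and 6 targets (red) and of 27 further glucocorticoid-induced genes (grey), sorted within each list, with filled points for an adjusted p under 0.05. Both lists run from below 0 to above 0, the red from Klf9 at -1.08 to Sgk1 at 0.25 and the grey from Klf15 at -2.03 to Angptl4 at 1.83.

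Of 15 genes that glucocorticoids are known to repress, 6 were expressed enough to test. With Cxcl1 left aside, Igf1 was called up and Vcam1 and Ptgs2 down in SD vs. 2% HS, against 13.9% of all genes in each direction. The chemokine gene Cxcl1 was near the floor, with 1 to 7 counts per library in 2% HS and 8 to 15 in SD, and it passed the filter on low counts only through the serum-free groups, where it is higher, so its call (log2 fold change 1.46) is given as a description. The growth factor gene Igf1 rose (0.33), while the adhesion molecule gene Vcam1 (-0.44) and the prostaglandin synthase gene Ptgs2 (-0.29) fell.

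Genes for enzymes that convert steroids inside the cell and for other steroid receptors were examined beside the glucocorticoid receptor. Hsd11b1, which regenerates active glucocorticoid from its inactive form, rose from 15.4 to 20.6 CPM in 2% HS to 31.9 to 39.5 CPM in SD, with no overlap (log2 fold change 0.97 ± 0.07, SE, adjusted p = 7.4e-17 by edgeR). In MET+LEU it was 41.2 to 47.0 CPM, above every SD library (log2 fold change 0.32 vs. SD, adjusted p = 1.2e-04). H6pd, which supplies its cofactor, was -0.13 in SD vs. 2% HS (adjusted p = 0.0386 by edgeR), a call that ended when any of 7 libraries was left out (2% HS replicates 1, 4 and 6, SD replicates 3, 4, 5 and 6, adjusted p 0.0590 to 0.124) or with no filter on low counts (0.0551). Hsd11b2, which inactivates glucocorticoid, was too low to test, with at most 10 counts in a library. Of this list of 9 enzyme and receptor genes, 7 were tested. With Pgr left aside, Hsd11b1 and the steroid reductase gene Akr1c14 (log2 fold change 3.13) rose and H6pd fell in SD. In each direction 13.9% of all genes were called. Pgr, the progesterone receptor gene, had 8 to 19 counts per library in 2% HS, where 5 of 6 libraries reached the filter's limit. It met the filter on low counts only with the serum-free groups, where it is higher. Its call (log2 fold change 2.27, from 0.976 CPM to 4.74 CPM on average) is therefore given as a description. In MET+LEU vs. SD Hsd11b1 and Akr1c14 (0.32) rose and 0 fell, against 10.6% of all genes called up and 7.80% down.

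Genes for partners of the receptor were examined next. Of 12 genes for the chaperone complex that holds the receptor ready for hormone, 1 was called in SD vs. 2% HS (Bag1, log2 fold change 0.15), against 27.8% of all genes. In MET+LEU vs. SD 9 rose and 1 fell, against 10.6% of all genes called up and 7.80% called down, and the median log2 fold change was 0.21, beside -0.01 for all genes. Some myotube markers rose and some cycling cell markers fell in this contrast too, as given above, while 6 of the 10 myotube markers were not called. The part of these markers in the chaperone values was not tested. With only the SD and MET+LEU libraries fitted, 5 rose and 0 fell, where 1345 of 15907 genes were called in either direction. Bag1, an Hsp70 nucleotide exchange factor, rose with 0.40, St13 (Hip) with 0.30 and Stip1 (Hop), which links Hsp70 to Hsp90, with 0.29. The genes of Hsp90 itself rose too, Hsp90aa1 with 0.25 and Hsp90ab1 with 0.20. Without MET+LEU replicate 6 these were 0.20 and 0.11 (adjusted p = 0.0422 for Hsp90ab1 by edgeR), and Hsp90ab1 was not called with only the SD and MET+LEU libraries fitted (adjusted p = 0.132). The gene that fell was Dnajb1, an Hsp40 co-chaperone (-0.14), and its call ended without SD replicate 1, 2 or 3 or MET+LEU replicate 4 or 6 (adjusted p 0.0511 to 0.134), with limma-voom (0.201) and with only the groups compared (0.137). Of 13 coregulator genes, 0 were called in SD vs. 2% HS by edgeR, DESeq2 or limma-voom, with 0 at an unadjusted p under 0.05, and 1 rose in MET+LEU vs. SD (Ncor1, a corepressor, 0.13), a call that ended without SD replicate 1, 2, 3 or 6 or MET+LEU replicate 6, with upper-quartile scaling, with limma-voom and with only the groups compared (adjusted p 0.0592 to 0.230).

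**Figure D4:**
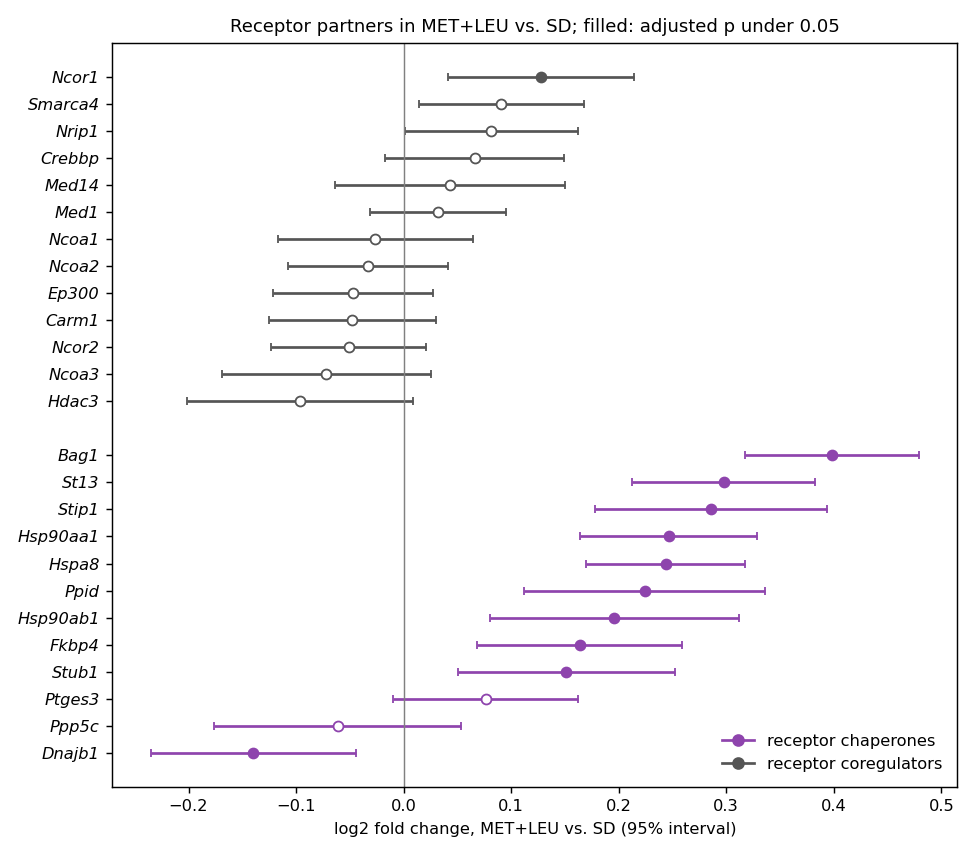
Log2 fold changes in MET+LEU vs. SD (horizontal axis, with 95% intervals) of 12 chaperone genes (purple) and 13 coregulator genes (grey) of the receptor, with filled points for an adjusted p under 0.05. The chaperones lie mostly above 0, up to 0.40 for Bag1, and the coregulators lie around 0.

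One library, MET+LEU replicate 6, held 5.85% nuclear ribosomal RNA, against 0.209% to 1.96% in the other 29, and 7.64% mitochondrial ribosomal RNA, against 0.219% to 0.760%. It stood highest of its group for St13, Stip1 and Ncor1. Without it, 8 chaperone genes rose and 0 fell, with a median of 0.14, and Ncor1 was not called (log2 fold change 0.06, adjusted p = 0.230 by edgeR). Over the fits with 1 library left out, 2161 to 3142 of 15907 genes were called in MET+LEU vs. SD in either direction. Klf9 (0.18, adjusted p = 0.0486) and Glul (0.12, adjusted p = 0.0090) were still called without MET+LEU replicate 6.

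In the further lists, MET+LEU vs. SD called 3 of the 27 glucocorticoid-induced genes up and 5 down, against 10.6% and 7.80% of all genes, among them Gpx3 up (0.26), Mt2, a metallothionein gene, up (0.26) and Ddit4, an mTORC1 inhibitor gene, down (-0.42). Mt2 was not called without SD replicate 3, 4 or 6 or MET+LEU replicate 1, 2 or 5, or with no filter on low counts (adjusted p 0.0549 to 0.0819). Of the repressed genes, Igf1 (0.26) and Vcam1 (0.15) rose, the latter not without SD replicate 1 or MET+LEU replicate 2 or 5 (adjusted p 0.0569 to 0.0793), with limma-voom (0.0937) or with only the groups compared (0.111).

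Serum also carries growth factors, and Sgk1 and Errfi1 answer to these as well. Of 21 serum-induced immediate early and ERK feedback genes, 6 rose and 2 fell in SD vs. 2% HS, against 13.9% of all genes in each direction, among them the feedback inhibitor Spry4 (0.48), Jun (0.37), Egr3 (0.34) and the phosphatase Dusp6 (0.29) on the up side. In MET+LEU vs. SD 1 rose (Jun, 0.15) and 3 fell (Fos, -0.39, Dusp5, -0.34, and Srf, -0.16), against 10.6% of all genes up and 7.80% down. The call of Jun ended without SD replicate 2 or MET+LEU replicate 6, that of Dusp5 without SD replicate 2 or MET+LEU replicate 4, 5 or 6, and that of Srf without SD replicate 1. With limma-voom Jun, Dusp5 and Srf were not called (adjusted p = 0.0888, 0.0966 and 0.0633), nor with only the groups compared (0.122, 0.0553 and 0.0984). How much of any target's difference came with steroid and how much with other serum components cannot be told apart, because both were removed together.

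Transcripts that mark cell types also moved with serum, in a comparison where 13.9% of all genes were called up and 13.9% down. Of 10 myotube markers 1 rose and 3 fell in SD vs. 2% HS, 6 were not called and the median log2 fold change was -0.09. Their summed level was 40828 to 43765 CPM in 2% HS and 33468 to 35990 CPM in SD, and most of it was Ttn (titin), at 30972 and 24592 CPM on average. Of 6 myoblast and cycling cell markers 1 fell (Pax7, -0.37) and 0 rose, with summed levels of 356.2 to 383.3 CPM in 2% HS and 316.4 to 357.1 CPM in SD. With Lum left aside, all others of the 7 fibroblast markers rose. The summed levels of the 7 were 3251 to 3558 CPM in 2% HS and 5541 to 5881 CPM in SD. Lum was at 2 to 14 counts in 2% HS and passed the filter only through the serum-free groups, so its rise is given as a description. Markers of endothelium, blood, fat and bone summed to at most 4.25 CPM in any library, and Adgre1 was at 0. The cultures were of 1 cell line, so the lists name transcripts and do not count fibroblasts. In such bulk samples fewer cells of a type, such as myotubes, and less RNA per cell cannot be told apart. The part of these markers in the changes of Klf9, Glul, Tsc22d3 and Sgk1 was not tested.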

How the data were processed

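Total RNA for 30 libraries (5 groups of 6) was depleted of ribosomal RNA and sequenced as stranded 150 × 150 bp libraries. The authors deposited raw counts per gene, whole numbers without normalization. The submitters' processing notes name STAR 2.7.6a, cutadapt 1.16, featureCounts 1.6.3, DESeq2 1.30.1 and GRCm38; the annotation release and strand setting are not given in the sources used here. Genes were named and placed with GENCODE M21 (55141 of 55487 identifiers matched; the 346 others held 0.0268% of counts).

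Genes were kept by filterByExpr (minimum count 10, minimum total 15), scaled by TMM and fitted with a mean per group over all libraries in edgeR 4.0.16 (R 4.3.3). Each contrast had a quasi-likelihood F test at an adjusted p under 0.05, Benjamini-Hochberg over 15907 genes. The standard error is the absolute log2 fold change divided by the square root of F. Alternatives were DESeq2 1.42.0, limma-voom (limma 3.58.1), other scalings, no filter, only the groups compared, a replicate block, an adjusted p under 0.01 and each library left out. The steps were tested on simulated data. The first criterion, recovery over all planted genes, was not met, and it was then narrowed to genes with high counts.

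Members and lists were chosen with earlier results of these data known. Besides the 8 members, the text names from each list up to 4 called genes with the largest changes in SD vs. 2% HS and up to 3 in MET+LEU vs. SD; Per1, Hsp90aa1, Hsp90ab1, Dnajb1, Hsd11b2, Ttn, Lum and the called myotube and cycling cell markers were named after their values were seen. 1 further gene of the lists is not reported here. No 2 libraries of a group agreed within sampling noise.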

Additional observations from a re-analysis of the deposited data

Results flagged for a closer look

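Each of 160 sets of 6 libraries (32 named genes in 5 groups) was searched for a highest or lowest library that stood apart from the other 5, and 11 were found, of which 3 of 35 were in the receptor and its targets. Chance gives about 1 in 20. For Nr3c1, SD replicate 1 was at 128.3 CPM, with the others at 143.7 to 151.0. For Fkbp5, LEU replicate 5 was at 24.6 CPM, with the others at 20.4 to 21.7. For Errfi1, MET replicate 2 was at 67.9 CPM, with the others at 57.5 to 61.3.

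MET+LEU replicate 6 stood highest for St13 (360.2 CPM), Stip1 (221.9 CPM), Ncor1 (443.9 CPM) and Jun (279.1 CPM). In 2% HS, Angptl4 was at 14.04 CPM in replicate 6 and Srf was at 76.2 CPM in replicate 3. Ptgs2 was at 20.2 CPM in SD replicate 1, and Bag1 was at 182.0 CPM in MET replicate 6.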

How the results depend on the processing

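Over the 56 log2 fold changes of the 7 genes, 2128 values were recomputed, and 2032 kept their direction and side of the threshold. A further 30 lost the call, 10 gained it and 56 changed sign, 40 of these with 1 library left out and 0 where the reported value was called. In MET+LEU vs. SD the 3 calls became 1 with limma-voom, 1 with no filter, 0 with only the groups compared and 0 at an adjusted p under 0.01, and 2 to 3 with 1 library left out. Fkbp5 in MET+LEU vs. 2% HS became -0.0024 with DESeq2 size factors, -0.024 with upper-quartile scaling, -0.0015 with DESeq2, -0.0036 with limma-voom and -0.0030 with only the groups compared, and Fkbp5 in LEU vs. SD 0.00012, 0.00042 and 0.0030 with DESeq2 size factors, upper-quartile scaling and limma-voom. Klf9 in MET vs. SD became 0.0069 with limma-voom, and Tsc22d3 in MET+LEU vs. SD -0.0013 with upper-quartile scaling. The Errfi1 interaction became -0.0067, -0.015, -0.0069, -0.0040, -0.0089 and -0.0078 with DESeq2 size factors, upper-quartile scaling, DESeq2, limma-voom, no filter and only the groups compared. With 1 library left out, Fkbp5 ran from -0.024 to 0.025 in MET+LEU vs. 2% HS, from -0.019 to 0.067 in MET vs. SD and from -0.044 to 0.051 in LEU vs. SD. Klf9 ran from -0.036 to 0.029 in MET vs. SD and from -0.019 to 0.060 in LEU vs. SD. In LEU vs. SD Nr3c1 ran from -0.0039 to 0.047, Tsc22d3 from -0.0070 to 0.039, Sgk1 from -0.016 to 0.038, Glul from -0.0072 to 0.033 and Errfi1 from -0.024 to 0.041. Tsc22d3 in MET+LEU vs. SD ran from -0.020 to 0.036, and the Errfi1 interaction from -0.030 to 0.040. The cause of these changes was not tested. With the replicate number as a block, Errfi1 was called in SD vs. 2% HS (log2 fold change -0.12, adjusted p = 0.0354 by edgeR) and in LEU vs. 2% HS (-0.11, adjusted p = 0.04997), and no other call of the 7 genes changed. Deviations from the group mean correlated by 0.0157 on average (-0.0913 to 0.142) between same-numbered libraries of different groups. Between libraries with different numbers the mean was -0.0031, so the numbers gave no sign of pairing. Over all genes, the 25 called in MET vs. SD became 3 to 120 under the other settings and 4 to 162 with 1 library left out, the 88 in LEU vs. SD 25 to 216 and 43 to 263, and the 8 of the interaction 1 to 31 and 1 to 13. The 2931 in MET+LEU vs. SD became 1345 with only the groups compared. Depth limits Zbtb16, at 0 counts throughout, and the genes too low to test.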
